A study of Mus musculus with 10 samples.

Results

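Cells with a transcript profile that resembles the 2-cell embryo, called 2-cell-like cells, were selected from 10 single-cell RNA-seq (scRNA-seq) libraries of mouse cells as those with 5 or more unique molecular identifiers (UMIs, each standing for 1 captured transcript) summed over the genes *Gm21761*, *Gm8300*, *Gm5662*, *Gm5039* and *Zscan4d*. This rule was met by 52 of 5897 cells, of which 39 were dCD d4 EB and 10 were S+L ESC. The study followed the differentiation of embryonic stem cells (ESC) into primordial germ cell-like cells (PGCLC), passing through epiblast-like cells (EpiLC), which were then aggregated into embryoid bodies (EB). There were 8 libraries of wild type E14Tg2a cells, which were ESC in 2i medium with LIF (2i ESC), ESC in serum with LIF (S+L ESC), EpiLC at day 1, 2 and 3 (d1, d2 and d3 EpiLC), epiblast stem cells (EpiSC), and EB at day 2 and 4 (d2 and d4 EB). The remaining 2 libraries were d4 EB of the R1 strain, made from wild type ESC (R1 WT) and from the Mll3/4 dCD line, in which the histone methyltransferases MLL3 and MLL4 carry substitutions that remove their catalytic activity while the proteins stay in place. The dCD line was derived from R1 ESC and only 1 such line was profiled, every condition had 1 library, and EB are mixtures of cell types grown with BMP4, SCF, LIF and EGF. Because there were no replicate libraries, no test between groups was made, and all intervals given are exact 95% intervals that cover counting error only.

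2-cell-like cells are a rare and transient state in cultures of mouse pluripotent cells, in which genes of the embryo's first wave of transcription are switched on. In the embryo and in culture, the transcription factor DUX activates many of these genes, among them the Zscan4 family of zinc finger proteins, which are known for their role in telomere maintenance, and MERVL retroviral elements, whose long terminal repeats act as promoters of neighboring genes. Several of the protein families involved, such as PRAME-like, USP17-like and TCSTV proteins, are encoded by clusters of recently duplicated genes.

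Of the 5 genes used for the selection, *Zscan4d* lies on chromosome 7 (11161374 to 11166159, minus strand), *Gm21761* on chromosome 13 (119912095 to 119929272, minus strand), and *Gm8300* (87514316 to 87518266, plus strand), *Gm5662* (88270640 to 88274500, minus strand) and *Gm5039* (88320122 to 88324026, minus strand) on chromosome 12, all in GRCm38 and annotated as protein-coding. The transcripts of the last 3 are near-identical copies, with 93.3% identity between *Gm8300* and *Gm5662* over 1830 aligned bases, 94.3% between *Gm8300* and *Gm5039* over 1853 bases and 93.1% between *Gm5662* and *Gm5039* over 1820 bases. Their sum is therefore better determined than the share of each copy, because reads common to copies can be split or lost in counting. The same holds for the Zscan4, Usp17l, Tcstv and PRAME-like genes and for most of the numbered Gm genes named here.

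Promoter sequences were available for *Zscan4d* and *Gm21761* among the 5 genes, and are shown from 250 bases before to 50 bases after the transcription start (RefSeq, GRCm38.p6), together with that of *Zscan4c*, a gene outside the rule that was among the most enriched in both libraries with several 2-cell-like cells. The windows are chr7:11166099-11166398 on the minus strand for *Zscan4d*, chr13:119913419-119913718 on the minus strand for *Gm21761* and chr7:11005495-11005794 on the plus strand for *Zscan4c*. RefSeq places the start of *Gm21761* inside the GENCODE gene given above, 15.8 kb from its 5′ end, so that this window belongs to the RefSeq start. Capitals mark the 8 letters TGATTCAA and the 6 letters TATAAA.
Zscan4d: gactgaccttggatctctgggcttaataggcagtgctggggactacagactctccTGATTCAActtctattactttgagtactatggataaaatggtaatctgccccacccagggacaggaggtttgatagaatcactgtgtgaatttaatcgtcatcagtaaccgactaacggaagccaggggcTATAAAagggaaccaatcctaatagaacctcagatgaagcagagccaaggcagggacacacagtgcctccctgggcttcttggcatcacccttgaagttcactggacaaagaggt
Gm21761: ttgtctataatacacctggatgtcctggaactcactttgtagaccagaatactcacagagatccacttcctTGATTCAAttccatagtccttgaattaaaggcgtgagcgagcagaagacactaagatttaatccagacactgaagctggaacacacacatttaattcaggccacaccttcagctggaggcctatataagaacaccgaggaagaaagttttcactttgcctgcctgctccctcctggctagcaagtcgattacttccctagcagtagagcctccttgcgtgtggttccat
Zscan4c: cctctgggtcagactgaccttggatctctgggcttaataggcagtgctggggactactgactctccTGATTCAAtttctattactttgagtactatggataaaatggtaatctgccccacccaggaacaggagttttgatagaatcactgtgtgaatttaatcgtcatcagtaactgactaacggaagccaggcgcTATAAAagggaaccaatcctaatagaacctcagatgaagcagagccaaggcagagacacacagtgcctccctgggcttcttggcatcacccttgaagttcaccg

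TGATTCAA, which was noticed while reading these promoters, starts 195 bases before the transcription start of *Zscan4d*, 179 bases before that of *Gm21761* and 184 bases before that of *Zscan4c*. Searched on both strands, it was found in 183 of 27025 mouse promoters of the same length (0.677%) and in 55 of the 11430 promoters (0.481%) of genes compared in dCD d4 EB. TATAAA starts 65 bases before the start of *Zscan4d* and 54 bases before that of *Zscan4c*, was not found in the *Gm21761* window, and occurred in 4234 of all promoters (15.7%). These matches describe the letters only, and *Zscan4c* and *Zscan4d* are duplicated genes of one family.

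The share of 2-cell-like cells was 2.30% in dCD d4 EB (39 of 1699 cells, 95% Clopper-Pearson interval 1.64% to 3.12%) and 3.24% in S+L ESC (10 of 309 cells, 1.56% to 5.87%). In contrast, R1 WT d4 EB had 0 of 1416 cells, for which the same interval reaches up to 0.260%. The remaining cells were 1 of 289 d2 EpiLC (0.346%), 1 of 537 d2 EB (0.186%) and 1 of 368 E14Tg2a d4 EB (0.272%). No cell met the rule among 227 2i ESC, 280 d1 EpiLC, 399 d3 EpiLC and 373 EpiSC, with intervals that reach up to 1.61%, 1.31%, 0.920% and 0.984%. Hence, the dCD and the WT library of R1 differed in this share by more than counting error, but with 1 library of each the genotype, the line and the library cannot be told apart.

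The 5 genes together gave 2793 UMIs in the 39 selected dCD cells, while R1 WT d4 EB had 0 among 20586629 UMIs. The interval for the latter reaches up to 0.179 counts per 1000000 (CPM, here the UMIs of a gene in a group of cells relative to all UMIs of that group). Outside the selected cells, the genes gave 3.61 CPM in dCD d4 EB (2.86 to 4.48) and 3.02 CPM in S+L ESC (2.02 to 4.33), whereas they did not exceed 0.360 CPM in any other library. UMIs of the 5 genes were thus concentrated in few cells of 2 libraries, and in dCD d4 EB 1602 cells had 0 of them, 44 had 1 and 14 had 2 to 4. At the threshold, 3 dCD cells with 4 UMIs were left out and 1 with 5 was taken, and in S+L ESC 1 cell with 4 UMIs was left out and the lowest taken had 6.

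Depth differed between the kits used for the E14Tg2a and the R1 libraries (Chromium v2 and v3) and between cells. In dCD d4 EB the median was 10438 UMIs and 3115 detected genes per selected cell, against 11793 UMIs and 3626.5 genes in the other cells, and in S+L ESC it was 59118 UMIs and 6048.5 genes against 28801 UMIs and 4476 genes. Mitochondrial transcripts made up 9.0% of the UMIs of the selected dCD cells and 6.80% of those of the other dCD cells, with 4.79% and 4.38% in S+L ESC. The part of mitochondrial share in the results below was not tested. That of depth was examined only by recomputing some results, among them counts of genes in thinned cells, which are given at the end. After thinning every cell to 6831 UMIs the rule was met by 32 of 1529 dCD cells (2.09%, 1.44% to 2.94%), 6 of 309 S+L ESC (1.94%, 0.716% to 4.18%) and 0 of 1366 R1 WT cells. None of the 52 selected cells was called a doublet, while 11 dCD cells (0.647%) and 10 S+L ESC (3.24%) were, and no selected cell shared its barcode with another library of its table.

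**Figure D1:**
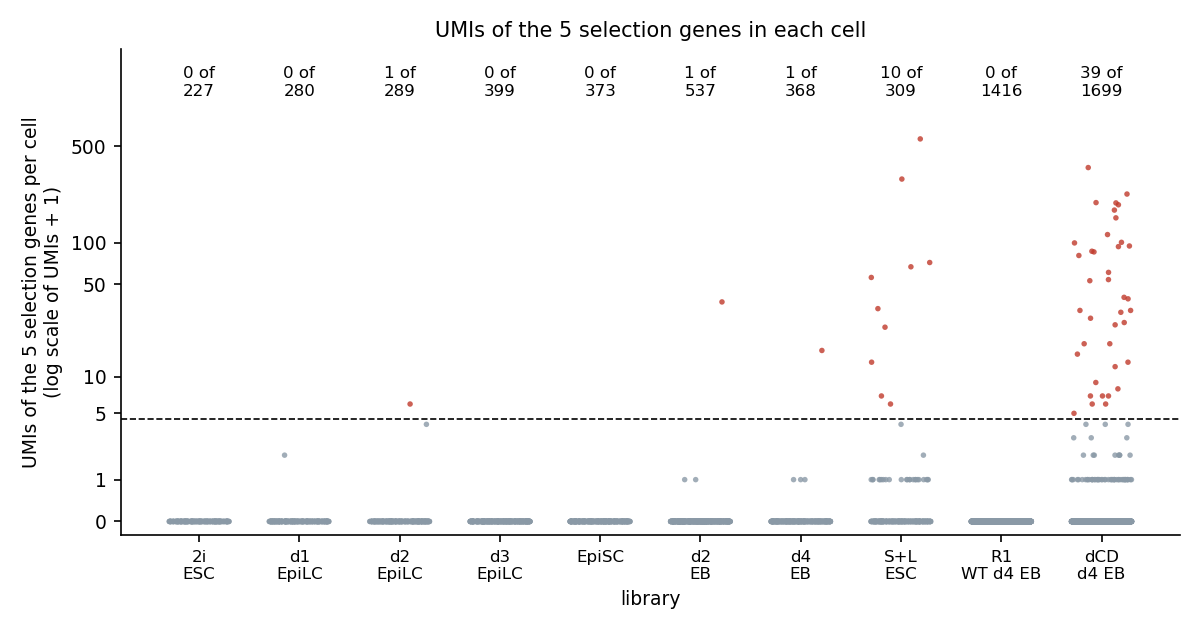
UMIs summed over Gm21761, Gm8300, Gm5662, Gm5039 and Zscan4d in every cell, by library (log scale of UMIs + 1). Each point is 1 cell, red where selected, the dashed line marks the rule of 5 UMIs and the numbers at the top give selected cells of all cells. All but 3 of the 52 cells at or above the line are in dCD d4 EB (39 cells) and S+L ESC (10 cells), and R1 WT d4 EB has no cell with such a UMI.

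The selected cells varied widely in how much of the selection genes they held. In dCD d4 EB the sum per cell had a lowest value of 5, a median of 39 and a highest of 351 UMIs, and the 2 highest cells held 20.7% of it. All 5 genes were detected in 17 of the 39 cells, 4 in 10 cells, 3 in 7, 2 in 3 and 1 in 2 cells. In S+L ESC the 10 cells had 6, 7, 13, 24, 33, 56, 67, 72, 290 and 565 UMIs, and the 2 highest cells, which were also the shallowest of the 10 with 14194 and 11281 UMIs in all, held 75.5%. Results for S+L ESC rest on these 2 cells more than those of dCD d4 EB do on any pair.

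As these values chose the cells, they are a description. *Gm21761* had 1374 UMIs in the selected dCD cells and 23 in the other 1660, *Gm5039* 528 and 27, *Gm8300* 387 and 14, *Gm5662* 289 and 7, and *Zscan4d* 215 and 10. A UMI of *Zscan4d*, the best known of the 5, was present in 24 of the 39 dCD cells and 7 of the 10 S+L ESC. Dropping any single gene from the sum left between 34 cells (without *Gm21761*) and 39 cells (without *Gm8300*) of the 39. Among the S+L ESC, the split among the genes differed, with 368 UMIs of *Gm8300* and 302 of *Gm5662* but 24 of *Gm5039* and 47 of *Zscan4d*. The E14Tg2a and R1 tables use different annotations, and the 3 copies on chromosome 12 cannot be separated with certainty.

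The selected cells were next described by 96 further genes known from the 2-cell embryo or from 2-cell-like cells, none of which is in the rule. These lists were chosen with earlier results of these data known. They also hold near copies and chromosomal neighbors of the selection genes, so that their sum is no independent check of the label. Of these, 83 were in the R1 table and 77 in the E14Tg2a table. Summed over the whole list, without any filter on low counts, the 2-cell genes made up 7486 CPM in the selected dCD cells and 138 CPM in the others, a 54.4-fold difference (51.8 to 57.2). The same sum was at 2356 CPM in the selected S+L ESC and 76.4 CPM in the others, a 30.8-fold difference (28.1 to 33.9). The 2 cells with the most selection UMIs held 835 of those 1144 UMIs, and without them the list was at 672 CPM in the other 8 selected cells, which is 8.79-fold higher (7.67 to 10.1). Not every 2-cell gene was seen, as 25 of the 83 and 36 of the 77 had 0 UMIs in the selected cells, and MERVL itself is not a gene of either table.

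Single genes were compared between selected and other cells on the log2(CPM + 1) scale when they had at least 10 UMIs in both together, and this scale understates the differences of rare transcripts. Many 2-cell genes pass this minimum only through the selected cells, where they then have to be higher, so that their counts are a description and no check of the label. In dCD d4 EB 42 genes of the list were compared and 40 of them were higher by 2-fold or more, among all 15179 genes compared 9.97% were higher and 21.0% lower by as much, and 15 of the 42 had at least 10 UMIs in the other cells alone. Of these 15, 13 were higher by 2-fold or more, with *Calcoco2* and *Pramef12* as the exceptions. For S+L ESC, 18 of 21 genes were higher by 2-fold or more, among all 11929 genes compared 5.0% were higher and 15.5% lower by as much, and 6 of the 21 had at least 10 UMIs in the other cells alone. Of these 6, 3 were higher by 2-fold or more, namely *Gm8994*, *Nelfa* and *Ddit4l*, and *Calcoco2*, *Pramef8* and *Pramef12* were not. Over every gene compared, the median log2 ratio stood at -0.28 in dCD d4 EB and -0.13 in S+L ESC.

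Cell by cell, the list gave between 240 and 40816 CPM in the selected dCD cells, with a median of 4797, and between 0 and 2849 CPM in the others, with a median of 107. In serum with LIF, the selected cells ranged from 193 to 44056 CPM with a median of 911, and the others from 0 to 299 CPM with a median of 69.3. The selected and the other cells therefore overlapped in both libraries at the low end of the selected cells. At least 10 UMIs of the list were found in 35 of 39 selected and 24 of 1660 other dCD cells (1.45%), and in 10 of 10 selected and 2 of 299 other S+L ESC (0.669%).

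The list was next compared between cells grouped by their number of selection UMIs. In dCD d4 EB it was at 133 CPM (128 to 138) in cells with 0 selection UMIs, 161 CPM (133 to 193) in those with 1, 590 CPM (484 to 713) with 2 to 4, 1181 CPM with 5 to 9, 3938 CPM with 10 to 49 and 12973 CPM with 50 or more. The intervals of the cells with 0 and 1 UMIs overlap, and the 14 cells with 2 to 4 UMIs lay between the bulk of the library and the selected cells. In S+L ESC the same steps had 75.7, 82.8, 95.6, 239, 764 and 4465 CPM, with 2, 2, 3 and 5 cells in the last 4, and the intervals of the steps below the threshold overlap.

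**Figure D2:**
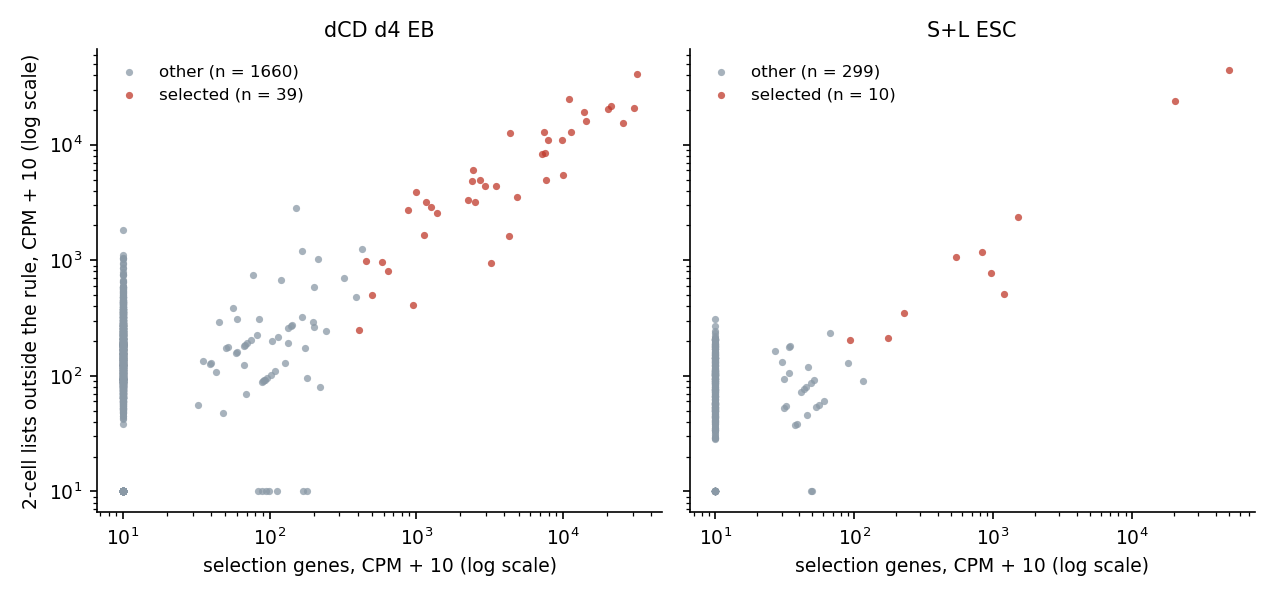
CPM of the 2-cell genes outside the rule against CPM of the 5 selection genes in single cells of dCD d4 EB and S+L ESC, with 10 CPM added and both axes on a log scale. Each point is 1 cell, red where selected and gray where not. Both measures come from the same cells and share their depth, and cells with a higher level of the selection genes also held more of the other 2-cell genes, up to 40816 CPM in dCD d4 EB and 44056 CPM in S+L ESC.

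Among the upstream factors, *Duxf3*, the gene encoding DUX, had 42 UMIs in the selected dCD cells and 21 in the others, or 99 and 0.935 CPM, a 106-fold difference (61.3 to 188). It was detected in 20 of the 39 selected cells with a highest value of 5 UMIs in a cell, and in 19 of the 1660 others. In R1 WT d4 EB it had 0 UMIs in 1416 cells, and in S+L ESC it had 5 UMIs in 4 of the 10 selected cells and 2 in the others (49.5-fold, 8.11 to 520). *Dppa2*, which can activate *Dux* together with *Dppa4*, had 420 CPM against 46.2 CPM in dCD d4 EB, a 9.08-fold difference (7.70 to 10.7) with a UMI in 32 of the 39 cells. By contrast, *Dppa4* was at 56.6 and 48.7 CPM, a ratio of 1.16 whose interval (0.742 to 1.74) includes 1. *Trp53*, which encodes the p53 protein, was 2.45-fold lower (1.87 to 3.28). *Gata2* had 1 UMI in the selected and 373 in the other dCD cells, a 7.04-fold lower level (1.26 to 279). In all, 3 of 6 known activators were higher and 2 lower by 2-fold or more (median log2 ratio 1.68), against 9.97% and 21.0% of all genes. In the selected S+L ESC 1 of 5 was higher and 1 lower, against 5.0% and 15.5% of all genes, with a median of 0.20, and there *Dppa2* was 1.67-fold higher (1.22 to 2.24) and *Trp53* 1.92-fold lower (1.36 to 2.81).

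*Nelfa*, a maternally supplied subunit of the negative elongation factor, was at 1098 CPM in the selected dCD cells and 54.8 CPM in the others, a 20.0-fold difference (18 to 22.3). Per selected cell it had between 0 and 64 UMIs with a median of 3, and it was detected in 35 of 39 cells but also in 818 of the 1660 others. Among the S+L ESC, it was at 550 CPM against 32.9 CPM, a 16.7-fold difference (14.2 to 19.8), but 201 of its 267 UMIs were in the 2 cells with the most selection UMIs, and in the other 8 it was at 143 CPM or 4.37-fold higher (3.30 to 5.71). *Nelfa* thus had a general low level in other cells and was higher in the selected cells with and without these 2. Over the 10 libraries its level outside the selected cells ranged between 27.9 CPM in 2i ESC and 54.8 CPM in dCD d4 EB.

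The rule used *Zscan4d*, and the other members of its family are near copies that may share reads with it. In dCD d4 EB all 5 members that could be compared were at least 4-fold higher, a rule of size passed by 415 of all 15179 genes (2.73%), but 0 of the 5 had 10 UMIs in the other cells alone, so that passing the minimum fixed their direction. *Zscan4c* had 128 UMIs in the selected cells and 7 in the others, a 968-fold difference (457 to 2457), and was present in 24 of the 39 cells. The genes annotated as *Zscan4-ps1*, *Zscan4-ps2* and *Zscan4-ps3* had 84, 98 and 55 UMIs in the selected and 1, 5 and 3 in the other cells. For S+L ESC, *Zscan4f* had 86 UMIs in the selected cells and 3 in the others, and *Zscan4c* 57 and 2, with 9 and 6 of the 10 cells positive.

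The Tcstv genes, a group transcribed variably in 2-cell embryos, were represented by *Tcstv3* and *AF067061*. *Tcstv3* had 59 UMIs in 9 of the selected dCD cells, 37 of them in 1 cell, and 0 in the others, which makes it at least 1041-fold higher against the floor of 3 UMIs over the group. *AF067061* had 149 and 12 UMIs in dCD d4 EB and 30 and 1 in S+L ESC, in 19 of 39 and 3 of 10 selected cells. In serum with LIF, 26 of the 30 UMIs of *AF067061* were in 1 cell and 1 UMI was left without the 2 cells with the most selection UMIs, so that single cells contributed a large part of the counts of these genes.

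All 5 Usp17l genes, which encode deubiquitinating enzymes, were at least 4-fold higher in the selected dCD cells (2.73% of all genes were), led by *Usp17lc* with 117 UMIs in the selected and 2 in the other cells. Of the PRAME-like genes 6 of 7 were at least 2-fold higher, against 9.97% of all genes. Of these families 2 Usp17l genes and 5 PRAME-like genes had 10 UMIs in the other cells alone. Of them 2 and 4 were at least 2-fold higher, against 9.08% of all genes with as many UMIs there. *Gm12794* had 240 UMIs against 12, a 1059-fold difference (595 to 2078), while *Pramef12* was at 11.8 and 13.4 CPM with a ratio of 0.880 (0.284 to 2.08). In S+L ESC 2 of 4 PRAME-like genes were at least 2-fold higher, against 5.0% of all genes, and 0 of the 2 with 10 UMIs in the other cells alone. The Tdpoz genes were rare and none reached the minimum, with 10 UMIs in the selected and 0 in the other dCD cells, and 0 in S+L ESC.

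Among the other 2-cell genes, 22 of 23 were at least 4-fold higher in dCD d4 EB, and 6 of the 7 with at least 10 UMIs in the other cells alone. Over all genes these shares were 2.73% and 1.97%. *Tmem92*, a transmembrane protein gene, had 205 UMIs in 28 of the selected cells and 22 in the others, a 493-fold difference (317 to 805). *Arg2*, which encodes a mitochondrial arginase, had 54 and 22 UMIs, a 130-fold difference (77.8 to 224). Zfp352, often used as a mark of MERVL activity, was rare, with 9 UMIs in 3 selected cells and 0 in the others. *Calcoco2*, an autophagy receptor gene, was the 1 gene of this group below that size, with 14.1 CPM in both groups.

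The 25 genes outside the rule with the largest ratios in dCD d4 EB, taken among genes with at least 50 UMIs in the selected cells, were *Zscan4-ps1*, *Usp17lc*, *Gm8953*, *Gm2016*, *Gm12800*, *Gm2022*, *Gm12794*, *Tcstv3*, *Zscan4-ps2*, *Zscan4-ps3*, *Zscan4c*, *Gm21319*, *BC147527*, *Gm4340*, *Gm4027*, *Gm8994*, *AF067061*, *4931428L18Rik*, *Ccser1*, *Sp110*, *Tmem92*, *BC080695*, *Gm13119*, *Platr31* and *Usp17la*. Of these, 19 are in the 2-cell lists, and 15 passed the minimum of 10 UMIs only through the selected cells. The lowest ratio among them was that of *Usp17la*, 299-fold (168 to 571). A selected cell held a median of 12 of the 25 genes, between 0 and 25, while 1550 of the 1660 other dCD cells held 0.

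In R1 WT d4 EB these 25 genes gave 29 UMIs in all, or 1.41 CPM (0.943 to 2.02), found in 27 of 1416 cells, none of which held more than 3 of the genes. In the dCD cells that were not selected they gave 9.13 CPM (7.92 to 10.5), with a UMI in 110 of 1660 cells. These intervals do not meet, but the dCD library also held 2823 UMIs of these genes in its selected cells and the WT library had no such cells, and free RNA in the droplets was not told apart from transcription in the other cells. Of the other dCD cells, 3 held 5 or more of the genes, compared with 33 of the 39 selected cells.

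The S+L ESC gave a partly overlapping set. The 15 leading genes there, among those with at least 20 UMIs in the selected cells, were *B020031M17Rik*, *Gm2056*, *AF067061*, *Zscan4f*, *Zscan4c*, *Gm4027*, *Platr31*, ENSMUSG00000079030 (paired with no symbol), *Gm8994*, *Gm21818*, *Gm2016*, *Ccser1*, *BC080695*, *Gm2035* and *Gm13119*. Their ratios ranged down to 99-fold (33.2 to 399) for *Gm13119*, and 9 of the 15 also led in dCD d4 EB. Of the 25 leading dCD genes 21 were in the E14Tg2a table, and 8 of these had 0 to 6 UMIs in the selected S+L ESC, among them *Tcstv3* and *4931428L18Rik* with 0, and were not compared. The other 13 were at least 4-fold higher there, but 12 of them passed the minimum only through the selected cells, with *Gm8994* as the exception.

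**Figure D3:**
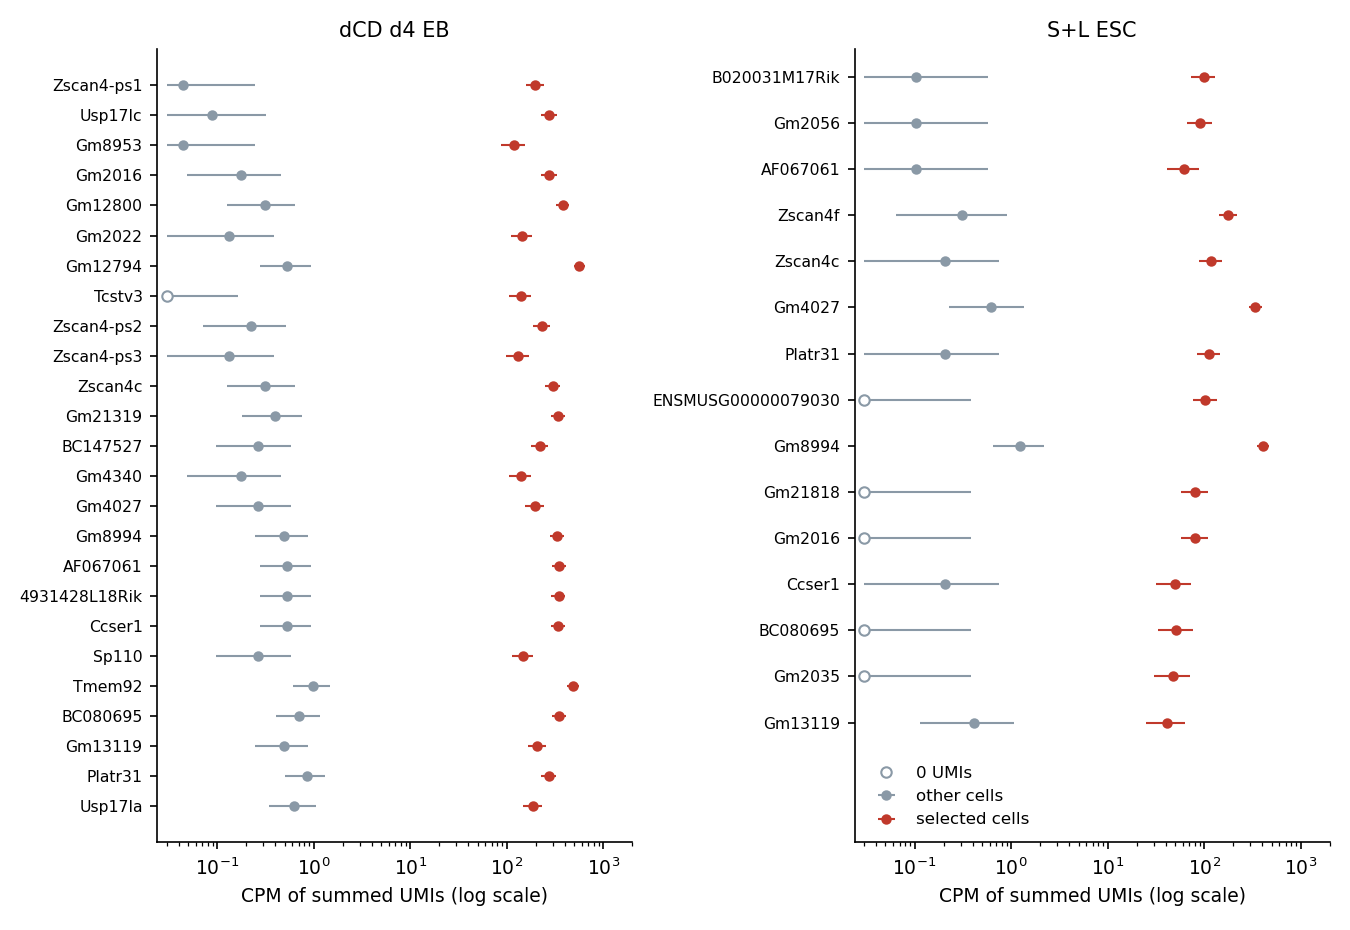
CPM (log scale) of the leading genes outside the rule in selected cells (red) and other cells (gray) of dCD d4 EB (25 genes) and S+L ESC (15 genes). Bars are exact 95% Poisson intervals and open circles at the left edge stand for 0 UMIs. The genes were picked for their large ratios, so that the gap between selected and other cells was fixed in advance. Of them, 15 in dCD d4 EB and 14 in S+L ESC passed the minimum of 10 UMIs only through the selected cells. The bars cover counting error only and not the spread between cells. In dCD d4 EB the smallest ratio is the 299-fold of Usp17la.

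Over all genes, 415 of 15179 (2.73%) were at least 4-fold higher in the selected dCD cells, 247 of them with at least 10 UMIs in those cells. Among the S+L ESC, 89 of 11929 (0.746%) were at least 4-fold higher, and 50 without the 2 cells with the most selection UMIs. Of the 415 genes 296, and of the 89 genes 39, had at least 10 UMIs in the other cells alone. Among the 11562 genes compared in both libraries, 208 were at least 4-fold higher in dCD d4 EB, 82 in S+L ESC and 64 in both, which is 30.8% of the first and 78.0% of the second set. These libraries differ in strain, genotype, culture and kit and share no cells, but the same rule chose the selected cells in both. At most 39 of the 64 genes had at least 10 UMIs in the other S+L ESC alone. For the rest, passing the minimum in S+L ESC fixed their direction, so that the overlap is a description and no independent check. Of the 64 genes, 22 are in the rule or the 2-cell lists and 42 are not.

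Several of these 42 genes, which are named after their values were seen, are not from the duplicated families of 2-cell genes. *Lgals4*, which encodes the sugar-binding protein galectin-4, had 243 UMIs in 34 of the 39 selected dCD cells and 96 in the others, a 134-fold difference (105 to 172), and was 34.2-fold higher (15.5 to 79.6) in S+L ESC. It was rare elsewhere, with between 0.137 and 1.14 CPM in the other cells of the E14Tg2a libraries and 0.146 CPM in R1 WT d4 EB. *Ercc4*, a DNA repair endonuclease gene, was 29.4-fold (23.1 to 37.2) and 31.8-fold (19.4 to 53) higher. *Spesp1*, the gene of a sperm equatorial segment protein, was 189-fold (107 to 352) and 82.5-fold (33.1 to 246) higher, with only 6 UMIs in the other S+L ESC. *Cwc22*, a splicing factor gene with a general level in other cells, was 12.2-fold (10.3 to 14.3) and 5.79-fold (4.06 to 8.12) higher. Without the 2 S+L ESC with the most selection UMIs the S+L ratios were 9.50 (2.59 to 29.7) for *Lgals4*, 5.97 (2.35 to 13.5) for *Ercc4*, 27.9 (8.48 to 97.5) for *Spesp1* and 1.90 (1.02 to 3.29) for *Cwc22*, so that the size of these differences in S+L ESC rests on those cells.

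*Ccser1* and *Platr31* were also outside the 2-cell lists and led in both libraries. *Platr31*, a noncoding transcript, had 115 UMIs in 27 of the selected dCD cells and 19 in the others, and 55 UMIs in 9 of 10 selected S+L ESC and 2 in the others. *Ccser1* had 143 and 12 UMIs in dCD d4 EB and 24 and 2 in S+L ESC. Both genes thus had few UMIs outside the selected cells. The zinc finger genes *Zfp560* and *Zfp809* were 24.0-fold (19.9 to 28.8) and 12.6-fold (9.88 to 15.9) higher in dCD d4 EB and 9.03-fold (6.66 to 12.1) and 12.3-fold (5.64 to 25.7) higher in S+L ESC, or 5.26-fold (3.57 to 7.59) and 4.98-fold (1.47 to 13.6) without the same 2 cells. *Platr31* kept 42 of its 55 UMIs without them and *Ccser1* 14 of its 24.

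**Figure D4:**
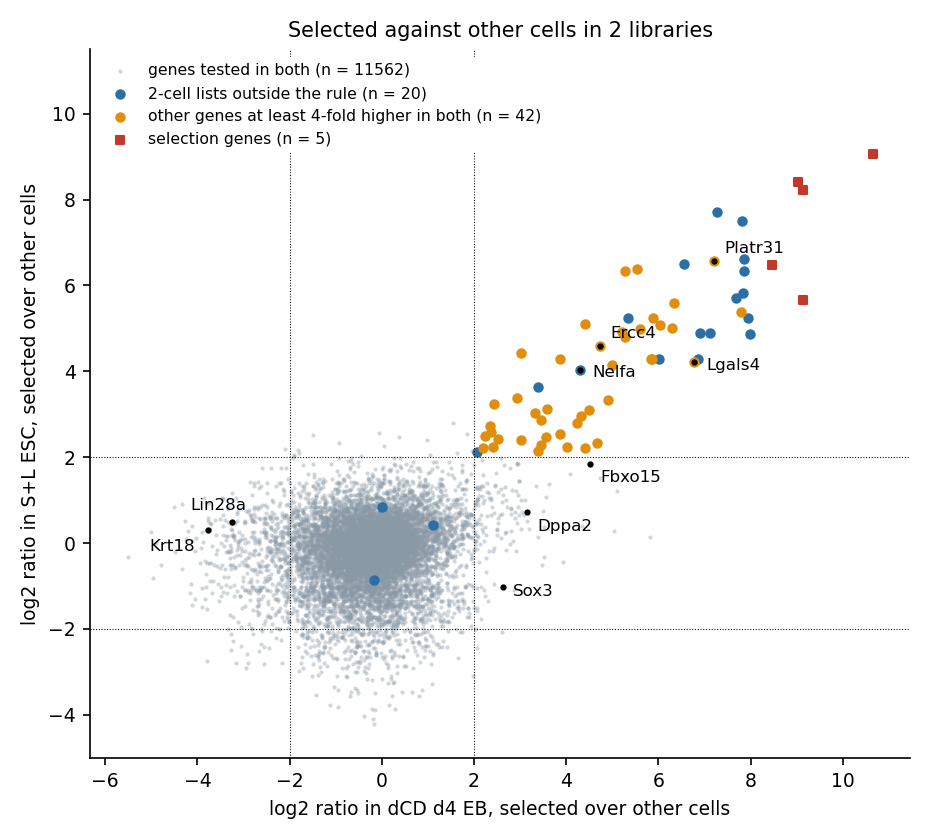
Log2 ratio of CPM + 1 of selected over other cells in S+L ESC against the same ratio in dCD d4 EB for the 11562 genes compared in both. Red squares are the 5 selection genes, blue points the 2-cell genes outside the rule, orange points the 42 other genes at least 4-fold higher in both, gray points all other genes, and dotted lines mark 4-fold. Fbxo15, Dppa2 and Sox3 lie to the right of the line only in dCD d4 EB, with log2 ratios of 4.51, 3.16 and 2.63.

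Part of the enriched genes lay close to the selection genes. Within 1 Mb of them, 11 of 28 genes compared on chromosome 12 (86514316 to 89324026), 9 of 15 on chromosome 13 (118912095 to 120929272) and 5 of 6 on chromosome 7 (10161374 to 12166159) were at least 4-fold higher in dCD d4 EB, against 2.73% of all genes. Among them were *Gm2016* and *Gm4027* near *Gm8300*, and *AF067061* and *B020031M17Rik* near *Gm21761*. Only *AF067061* with 12 and *Tmem267* with 106 had at least 10 UMIs in the other cells. For the rest, passing the minimum fixed their direction, so that these counts are a description. These 25 genes were 6.10% of the 410 genes outside the rule that passed 4-fold, so that most of the enriched genes lay elsewhere. For S+L ESC, the blocks held 10 of 84 such genes (11.9%), none of which had 10 UMIs in the other cells alone. In both libraries, 8 genes of the blocks were at least 4-fold higher. TGATTCAA was picked while reading the promoters of *Zscan4d*, *Gm21761* and *Zscan4c*, so its presence in these was fixed in advance, and *Zscan4f* is of the same family. In the promoters it was found in 2 of 11 leading dCD genes with a sequence (*Zscan4c* and *AF067061*) and in 3 of 5 leading S+L genes (the same and *Zscan4f*). It was in 4 of the 40 genes at least 4-fold higher in both that had one, including the 2 genes of the rule. It was also found in 7 of 43 promoters of the 2-cell lists, and of these 7 genes *Oog2*, *Oog3*, *Oog4* and *Pramel6* had 0 UMIs in the selected cells of both libraries.

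The pluripotency genes differed from one another. *Fbxo15*, a target of OCT4 and SOX2 in ESC, was at 1127 CPM in the selected dCD cells and 48.4 CPM in the others, a 23.3-fold difference (20.9 to 26.0), with between 0 and 80 UMIs per cell and a median of 6. *Tdgf1*, encoding the NODAL co-receptor CRIPTO, was 3.83-fold higher (3.49 to 4.2). In contrast, *Sox2* was 2.41-fold lower (1.72 to 3.48), *Utf1* 3.62-fold lower (2.39 to 5.79) and *Pou5f1*, the gene of OCT4, 1.6-fold lower (1.31 to 1.99), while *Nanog* had a ratio of 1.20 (0.911 to 1.55). The 7 core pluripotency genes thus split, with 2 higher by 2-fold or more and 2 lower, against 9.97% and 21.0% of all genes, and a median log2 ratio of -0.16. In serum with LIF, *Fbxo15* was 3.66-fold higher (2.85 to 4.66) with a UMI in all 10 selected cells, and 2.80-fold (2.09 to 3.69) without the 2 cells with the most selection UMIs. Of the core list 1 of 7 was higher and 0 were lower by 2-fold or more (-0.35), against 5.0% and 15.5% of all genes. *Tdgf1* was 1.29-fold lower there (1.16 to 1.43), the opposite of its direction in dCD d4 EB.

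Of the 12 naive pluripotency genes, *Klf2* was 2.66-fold (2.24 to 3.12) and *Dppa5a* 2.29-fold (2.19 to 2.40) higher in the selected dCD cells and 0 were at least 2-fold lower. Their median log2 ratio was 0.34. Of all genes 9.97% were higher and 21.0% lower by 2-fold or more, which is also the measure for the next list. Among 9 formative or primed genes, *Sox3* was 6.80-fold higher (4.25 to 10.4), *Nodal* was 10.4-fold lower (2.87 to 85.8, from 2 UMIs) and *Lefty2* 2.88-fold lower (1.64 to 5.58). The median of this list was -0.53. In S+L ESC 0 of 12 naive genes differed by 2-fold (-0.23) and 2 of 8 formative or primed genes were at least 2-fold lower (-0.61), against 15.5% of all genes. *Sox3* had 0 UMIs in the selected S+L ESC.

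*Nelfa*, *Tdgf1* and *Fbxo15* did not follow the number of selection UMIs in the same way. *Fbxo15* was at 45.0 CPM in dCD cells with 0 selection UMIs, 70.2 CPM with 1, 355 CPM with 2 to 4, 341 CPM with 5 to 9, 736 CPM with 10 to 49 and 1773 CPM with 50 or more. *Tdgf1* had 291, 383, 869, 965, 1366 and 1060 CPM in the same order. *Nelfa* stayed at 43.7 CPM in cells with 2 to 4 selection UMIs and was at 136, 960 and 1638 CPM in the 3 steps above the threshold. Hence, *Fbxo15* and *Tdgf1* were already higher below the threshold, where *Nelfa* was not.

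Genes that mark the differentiated cells of the EB were mostly lower. The 15 lowest genes in dCD d4 EB, among those for which at least 50 UMIs were due at the level of the other cells, were *Tagln*, *Krt18*, *Krt8*, *S100a6*, *Tpm1*, *Mest*, *Emb*, *Zdbf2*, *Pmp22*, *Pcbp4*, *Tead2*, *Gpc3*, *Limd2*, *Fscn1* and *Rhoc*. *Krt18* and *Krt8*, the keratins of simple epithelia, had 12 and 36 UMIs in the selected cells and were 14.1-fold (8.06 to 27.3) and 6.26-fold (4.52 to 8.94) lower. *Tagln*, an actin-binding protein of smooth muscle, was 20.3-fold lower (6.92 to 98.3) from 3 UMIs, and *Tpm1*, encoding tropomyosin, 5.26-fold lower (3.94 to 7.19). A UMI of *Krt18* was found in 7 of 39 selected and 812 of 1660 other cells, at median depths of 10438 and 11793 UMIs.

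Lower calls are limited by depth, because 1 UMI stands for 2.36 CPM in the selected dCD cells. At least 4-fold lower were 5.26% of the genes, and of these 597 had 0 UMIs in the selected cells and only 111 would have had at least 10 UMIs at the level of the other cells. Among the S+L ESC, 351 genes (2.94%) were at least 4-fold lower, of which 318 had 0 UMIs and 10 had at least 10 due. The lowest among the well covered S+L genes were *Kif20b*, a mitotic kinesin gene with 5 UMIs that was 4.11-fold lower (1.75 to 12.7), *Dpys* (3.23-fold, 2.16 to 5.06), *Smarcb1*, *Phlda2*, *Gtf2h1*, *Sycp3*, *Abce1*, *Sdhaf4*, *Ubxn6* and *Rhoc*, of which *Rhoc* was also among the 15 lowest dCD genes.

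By cell type, 9 of 11 extraembryonic mesoderm genes were at least 2-fold lower in the selected dCD cells (median log2 ratio -1.61), as were 8 of 11 extraembryonic ectoderm genes (-1.78), 7 of 9 PGC genes (-1.33), 7 of 10 endoderm or gut genes (-1.72), 4 of 8 endothelium genes (-0.99) and 3 of 8 primitive streak or nascent mesoderm genes (-0.81), against 21.0% of all genes. Genes at 0 in the selected cells enter these medians, and at the floor of 3 UMIs they were -0.30, -1.63, -1.20, 0.53, 0.98 and 0.24. The medians of the endoderm, endothelium and streak lists thus changed sign, and no direction can be read from them at this depth. That of the extraembryonic mesoderm list came near the median over all genes (-0.28), and 5 of its 11 genes had 0 UMIs in the selected cells. *Msx1*, a homeobox gene of mesoderm, was 6.90-fold lower (3.16 to 18.8), *Hand1* 3.09-fold (2.05 to 4.87, with 17 of its 23 UMIs in 1 cell), *Tfap2c*, a PGC factor, 3.17-fold (1.45 to 8.67) and *Epcam* 2.25-fold (1.69 to 3.08). The summed level of the extraembryonic mesoderm list was 203 CPM in the selected and 608 CPM in the other cells, and that of the extraembryonic ectoderm list 363 and 1402 CPM. For S+L ESC, 2 of 9 PGC genes (-0.15) and 1 of 7 extraembryonic ectoderm genes (0.48) were at least 2-fold lower, against 15.5% of all genes. Of the other 4 lists no more than 3 genes each had enough UMIs.

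**Figure D5:**
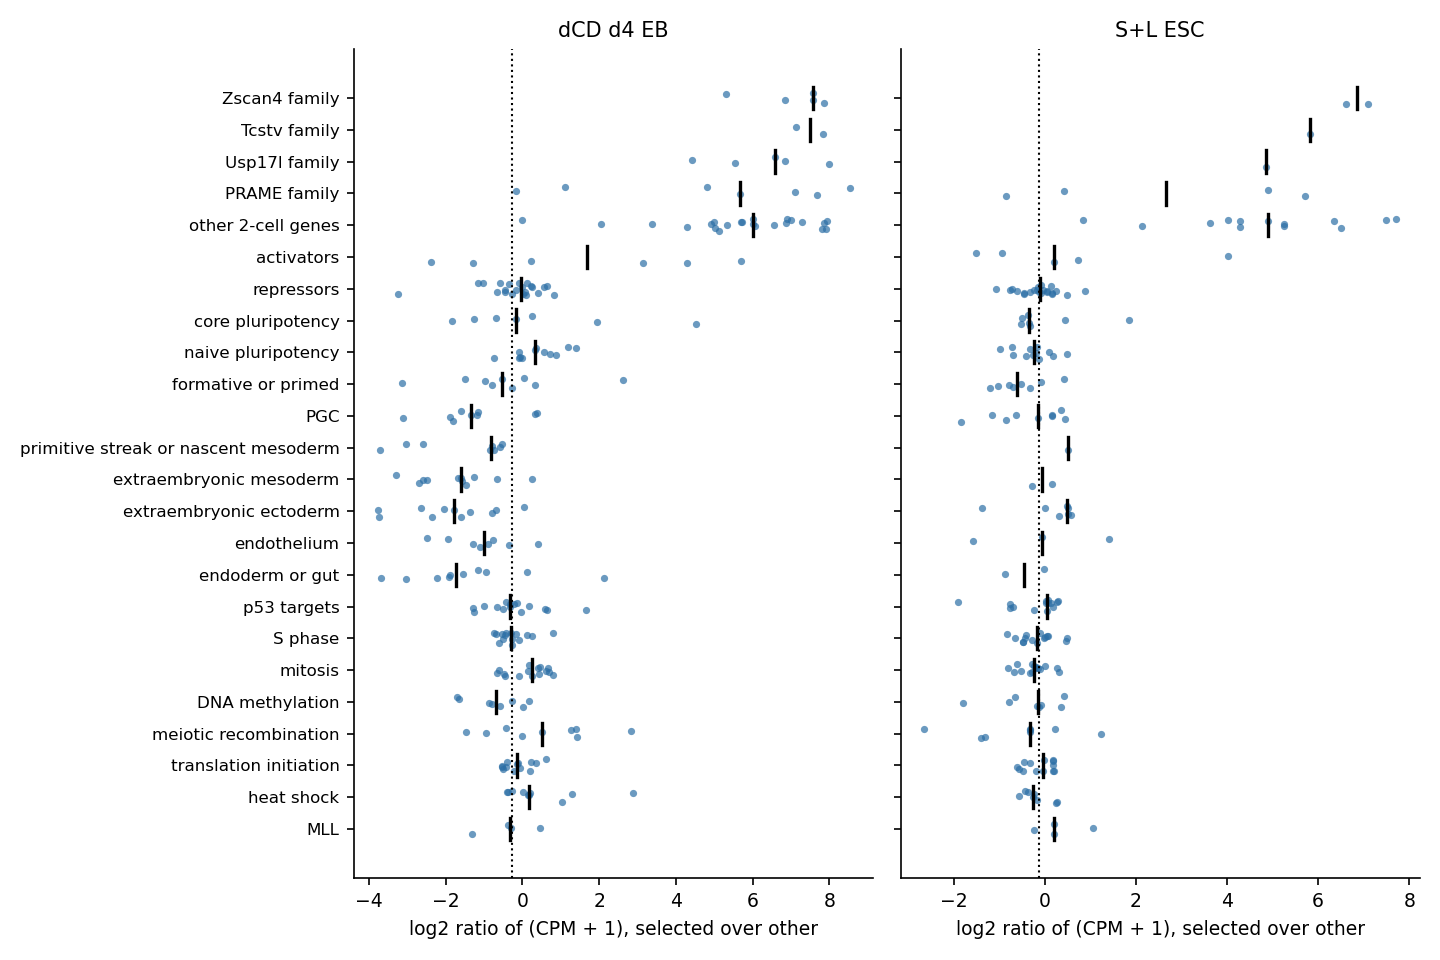
Log2 ratio of CPM + 1 of selected over other cells for the genes of each list in dCD d4 EB and S+L ESC. Each point is 1 gene, black bars are the medians of the lists and the dotted line is at the median of all genes (-0.28 in dCD d4 EB and -0.13 in S+L ESC). The medians of the 2-cell lists lie furthest to the right in dCD d4 EB, between 5.67 and 7.57 (27 of their 42 genes passed the minimum only through the selected cells). There the medians of the lists of differentiated cells lie to the left of the dotted line, with genes at 0 in the selected cells included. With such genes at the floor of 3 UMIs, the endoderm, endothelium and streak medians change sign and that of extraembryonic mesoderm is -0.30.

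Because EB are mixtures, the selected cells were also set beside those other dCD cells that were nearest to them in overall expression. These 281 cells were the 20 nearest of each selected cell on principal components computed without the 2-cell lists, a comparison chosen after seeing the data. Against them *Krt18* was 5.55-fold and *Krt8* 2.79-fold lower, compared with the 14.1-fold and 6.26-fold against all other cells. *Nelfa* (17.5-fold), *Fbxo15* (13.4-fold) and *Dppa2* (6.22-fold) were still higher, and *Nodal* (11.8-fold) and *Lin28a* (9.93-fold), an RNA-binding protein gene of pluripotent cells, were still lower. *Rhox6* and *Rhox9*, which count above among the PGC genes at least 2-fold lower, turned. Their log2 ratios went from -1.15 and -1.18 against all other cells to 1.16 and 0.58, so that part of the PGC result depended on the cells compared.

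On principal components computed without the selection genes and the 2-cell lists, the selected dCD cells lay near each other. Other genes enriched in these cells, such as *Gm12800*, *Ccser1* and *Platr31*, were not left out. The shares below are therefore a description and no check apart from the 2-cell genes. Of the 20 nearest neighbors of a selected cell among all R1 cells, 48.1% on average were selected cells, with a median of 60% and a range of 0% to 95%, while 1.25% of all R1 cells were selected. For the other dCD cells the share was 0.395%. With 10 in place of 20 principal components it was 17.1%, still above the share of selected cells. Neighbors of the selected cells were rarely WT cells (1.15%, against 5.48% for the other dCD cells). In serum with LIF, 12.0% of the neighbors were selected cells, against 3.24% of all cells and 2.36% for the other S+L ESC.

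Known repressors of the state differed little. Of 22 such genes in dCD d4 EB, 0 were higher and 3 lower by 2-fold or more (median log2 ratio -0.05), namely *Lin28a* with 2 UMIs (11.2-fold, 3.10 to 92.9), the histone H3K9 methyltransferase gene *Ehmt2* (2.30-fold, 1.25 to 4.81) and *Mga* (2.07-fold, 1.40 to 3.21). *Trim28*, a corepressor of retroviral elements, was 1.77-fold higher (1.55 to 2.02). In S+L ESC 0 of 22 were higher and 1 lower (-0.11). Against 21.0% and 15.5% of all genes that were at least 2-fold lower, these counts do not stand out.

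Genes of the cell cycle and of stress responses were also examined. None of 15 S phase and 15 mitosis genes differed by 2-fold in either library, with medians of -0.31 and 0.25 in dCD d4 EB and -0.18 and -0.23 in S+L ESC. Of 15 p53 targets, 1 was at least 2-fold higher and 2 lower in dCD d4 EB (-0.32), and of 14 in S+L ESC 0 were higher and 1 lower (0.04). Over all genes 9.97% were higher and 21.0% lower by as much in dCD d4 EB, and 5.0% and 15.5% in S+L ESC. Of 13 translation initiation genes none differed by 2-fold in either library (-0.15 and -0.04). Among 10 heat shock genes *Hspa1b* was 8.82-fold (4.85 to 15.1) and *Dnajb1* 2.47-fold (1.81 to 3.30) higher in dCD d4 EB, where 3 genes passed 2-fold and the median was 0.17. Among the S+L ESC, 0 of 8 differed by 2-fold (-0.25), with 2 UMIs of *Hspa1b* in the selected cells.

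In the DNA methylation list, 2 of 8 genes were at least 2-fold lower in dCD d4 EB and 0 higher (-0.68), against 21.0% and 9.97% of all genes. These were *Tet2* and *Tet3*, which encode enzymes that oxidize methylcytosine, at 3.28-fold (1.5 to 8.97) and 3.51-fold (1.37 to 12.9) lower with 6 and 4 UMIs. For S+L ESC, 1 of 8 was at least 2-fold lower and 0 higher (-0.15), against 15.5% and 5.0% of all genes. The counts of this list do not stand out from those shares. Of the meiotic genes 4 of 9 were at least 2-fold higher and 1 lower (0.51), against 9.97% and 21.0% of all genes, with *Sycp1* at 9.63-fold (4.38 to 19.1) and *Sycp3*, both encoding synaptonemal complex proteins, at 2.75-fold (1.97 to 3.74). In serum with LIF, 1 of 8 meiotic genes was higher and 3 were lower (-0.33), against 5.0% and 15.5% of all genes, and *Sycp3* was 2.56-fold lower (1.42 to 5.16). This gene thus had opposite directions in the 2 libraries, a difference that was not tested. *Kmt2c* and *Kmt2d*, which encode MLL3 and MLL4, had 9 and 17 UMIs in the selected dCD cells. *Kmt2c* was 2.57-fold lower there (1.35 to 5.63) and *Kmt2d* had a ratio of 1.39 (0.803 to 2.24). Of the 4 MLL family genes examined 1 was at least 2-fold lower (-0.33), against 21.0% of all genes, so that this count does not stand out. In S+L ESC 1 of 4 was at least 2-fold higher (0.21), against 5.0% of all genes. This was *Kmt2d* with 9 UMIs and a ratio of 2.20, whose interval (0.972 to 4.39) includes 1. These transcripts are not a check of the dCD genotype, since the substitutions leave them in place.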

How the data were processed

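Single cells were profiled with 10x Chromium 3′ kits, and each of the 10 conditions had 1 library. The values analysed were UMI counts per gene and cell as deposited by the authors, who aligned reads with Cell Ranger, combined the 8 E14Tg2a libraries at a common depth of mapped reads in 1 table (27998 genes, 2782 cells), and kept R1 cells with enough expressed genes in another (32285 genes, 3115 cells). The gene annotation behind each table was not given in the sources used here. All cells were used, and doublets were called with Scrublet but kept.

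UMIs were summed over the selected and over the other cells of a library and divided by the group's total. Ratios have exact conditional 95% intervals, levels exact Poisson and shares exact binomial intervals. With 1 library per group no test was possible, and cells were not treated as replicates. Genes with at least 10 UMIs were compared on log2(CPM + 1), and 2-fold and 4-fold were used as rules of size. A gene at 0 in the other cells was set against a floor of 3 UMIs over the group. Genes were named when they belonged to the rule or to a list, or had the largest ratios (25 genes with at least 50 UMIs in dCD d4 EB, 15 with at least 20 UMIs in S+L ESC) or the lowest (15 and 10 genes with as many UMIs due). Other genes were named after their values were seen. The selection genes and all lists were chosen with earlier results of these data known.

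Neighbors were computed from 2000 variable genes, 20 principal components and 20 neighbors, without the selection genes and 2-cell lists. Thinning drew 6831 UMIs per cell (seed 1). Alternatives covered the pseudocount, the UMI minimum, the size rule, the selection threshold, each selection gene left out, thinning, doublets, means over cells and the neighbor settings. Gene positions came from GENCODE on GRCm38. Scripts were tested on simulated data. Tools were Python 3.11.15, numpy 2.4.6, scipy 1.17.1, pandas 2.3.3, scanpy 1.11.5, scikit-learn 1.9.0 and matplotlib 3.10.9.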

Additional observations from a re-analysis of the deposited data

How the results depend on the processing

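Of 613 recomputed shares, counts of genes, list medians and neighbor shares, 526 stayed close to their value and 87 moved. No list median past 2-fold changed sign, but 14 medians nearer to 0 did, all in S+L ESC. This count holds neither the medians at the floor of 3 UMIs nor single genes, of which *Rhox6* and *Rhox9* turned against the nearest cells. The shares of selected cells stayed within their counting intervals in 33 of 33, between 1.82% and 2.65% in dCD d4 EB and between 1.94% and 3.56% in S+L ESC. The counts of genes past 4-fold depended on the pseudocount and on depth. For dCD d4 EB, the 415 higher genes became 687 with a pseudocount of 0.1 CPM, 158 with 10 CPM, 213 with at least 50 UMIs, 257 against the nearest other cells and 1513 at 2-fold. The lower genes became 3084, 18, 1337 (selection at 10 or more UMIs), 1400 (thinned cells) and 3182 (2-fold), the first 2 with 0.1 and 10 CPM. For S+L ESC, the 89 higher genes became 170 with 0.1 CPM, 36 with 10 CPM, 185 with no minimum, 24 with at least 50 UMIs, 209 as means over cells, 210 in thinned cells, 50 without the 2 selected cells with the most selection UMIs and 597 at 2-fold. The 351 lower genes became 1269 with 0.1 CPM, 0 with 10 CPM, 140 with at least 50 UMIs, 588 with selection at 10 UMIs, 2721 in thinned cells and 1847 at 2-fold. The median of the 2-cell lists in dCD d4 EB (6.31) was 8.54 with 0.1 CPM and 3.71 with 10 CPM, and in S+L ESC (4.90) it was 8.18, 2.24, 6.43 as means over cells and 3.90 without the 2 cells, where the summed level of these lists was 8.79-fold in place of 30.8-fold higher. The share of selected neighbors in dCD d4 EB (48.1%) was 32.2% with 50 neighbors, 17.1% with 10 components and 58.3% with all genes, and in S+L ESC (12.0%) it was 7.6% with 50 neighbors. The comparisons with the nearest other cells, with deeper S+L ESC, without 2 selected cells and with a minimum in the other cells alone were chosen after seeing the data. No paired analysis was possible because each condition had 1 library and no result came from a test. The counts in 39 and 10 cells limit what can be said of genes that were lower.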

Other observations

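The 3 selected cells outside dCD d4 EB and S+L ESC were single cells of E14Tg2a libraries. The d2 EpiLC cell had 6 UMIs of the selection genes and 7 of the other 2-cell genes among 47091, together with 4 UMIs of Fgf5, 6 of Otx2, 39 of Pou5f1 and 28 of Utf1, which are formative or general pluripotency genes. The d2 EB cell had 37 and 37 UMIs among 17386, with 11 of Zscan4f, 0 of Nelfa and 12 of Nanog. The d4 EB cell had 16 and 19 UMIs among 25004, with 2 of Nelfa and 128 of Dppa5a. No group was formed from these cells.

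Fbxo15 and Dppa2, which were higher in the selected dCD cells, also differed between the R1 libraries outside those cells, with 48.4 and 46.2 CPM in dCD d4 EB and 19.3 and 18.6 CPM in R1 WT d4 EB. In contrast, Nelfa was at 54.8 and 44.9 CPM in these libraries. In the E14Tg2a series the other S+L ESC had 45.0 CPM of Fbxo15 and 59.3 CPM of Dppa2. With 1 library each, these values have no replicate check.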
